A study of Mus musculus with 12 samples.

Results

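The genes described here make, cut and bind hyaluronan, and they were measured in mouse pancreatic tumours after treatment with an inhibitor of focal adhesion kinase (FAKi) or with vehicle. They were 10 genes, chosen with earlier results of these data known, so p-values for single members are not those of genes picked blind. The synthases were Has1, Has2 and Has3, and the hyaluronidases Hyal1 and Hyal2. The receptors were Cd44, Hmmr and Lyve1, and the matrix proteins Vcan and Hapln1. Every probe of the array that carried 1 of these names and was not a control was taken, which gave 20 of 56605 probes and 10 of 37008 genes. A probe was counted as measured if the scanner software marked it well above background on 6 or more arrays out of 12, whatever their group. By that rule 16 of the 20 probes were measured, for 9 of the 10 genes, out of 40456 probes and 27350 genes on the whole array. Hapln1 was the gene without a measured probe. Each of the 9 measured genes was well above background in at least 5 tumours of either group, so no member passed through the level of 1 group alone.

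Hyaluronan is a long unbranched sugar chain of the extracellular matrix. It is made at the cell membrane by the 3 synthases from activated sugars, pushed out of the cell as it grows, and cut by hyaluronidases and surface enzymes. Receptors such as CD44 and LYVE1 hold or take up the chain, and proteins such as versican, link protein and the heavy chains of inter-alpha-inhibitor tie it into a network. Pancreatic ductal tumours are known for a dense stroma in which hyaluronan is a main component.

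Each sample was total RNA of tumour tissue from female C57BL/6 mice, given as 8 weeks old, that carried orthotopic KP tumours. The vehicle group (n = 6) received vehicle and the FAKi group (n = 6) received FAKi at 50 mg/kg by gavage, both for 14 days. The compound behind the name FAKi, the number of tumour cell lines and any pooling of animals were not given in the sources used here. The labels number the tumours of a group but do not say that each came from a separate animal, so the p-values below measure the spread between these samples. Cy5-labelled cRNA from 0.5 µg of RNA was hybridised to 12 one-colour arrays, and the number of arrays limits the precision.

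Levels are given as log2 of the processed signal minus the array's 75th percentile, so that 0 is a probe as bright as the 75th percentile of its array. They are compared between tumours for the same probe, never between probes. Across the 12 arrays, 66.6% to 76.1% of spots were well above background and 0 spots were saturated. The median gene differed by 0.08 log2 between the groups, FAKi minus vehicle. Of 27350 genes 0 passed limma at an adjusted p of 0.05 (0% of genes), while 1310 genes (4.79%) were under an unadjusted limma p of 0.05, 567 of them lower in FAKi tumours (2.07%). No member passed the adjusted test. Of the 9 measured members 2 were under the unadjusted p, and 5 had a lower mean in FAKi tumours, as did 39.5% of all genes. The samples were bulk tissue, so fewer cells of a type and less RNA per cell cannot be told apart. All 8 epithelial markers (Krt8, Krt18, Krt19, Krt7, Epcam, Cdh1, Sox9 and Muc1) and all 11 fibroblast markers were measured on all 12 arrays, and 6 of 8 acinar markers of the normal pancreas were measured.

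The results turn on Has2 and Has3, each read by 1 probe of 60 bases. The positions below come from the array design, on mouse build mm9. Only the first 30 bases of each probe are printed, 5′ to 3′ and in lower case throughout because no part is singled out. The Has2 probe lies at chr15:56497356-56497415 on the minus strand and the Has3 probe at chr8:109406334-109406393 on the plus strand. Which exon or untranslated part each covers was not analysed here.
Has2 probe 1: ctagtgggaaacaaacacaccctgacaata
Has3 probe 1: ggatattacaaacccgtctttcttaatagt

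Has3 was lower in every FAKi tumour than in any vehicle tumour. Has3 is the synthase associated with shorter hyaluronan chains. Its level in the vehicle tumours had a lowest value of -3.22, a median of -2.20 and a highest of -1.07, and in the FAKi tumours these were -7.54, -4.18 and -3.44. The groups did not overlap: the lowest vehicle tumour (vehicle 1) stood 0.21 log2 above the highest FAKi tumour (FAKi 2). Among 27240 genes with a value on all 12 arrays, 33 genes (0.121%) were likewise lower in FAKi with no overlap, and 65 genes (0.239%) did not overlap in either direction. The mean of Has3 was -2.19 ± 0.69 (SD, n = 6) in vehicle and -4.77 ± 1.54 (SD, n = 6) in FAKi tumours. The log2 difference was -2.58 (limma SE 0.61, 95% interval -3.90 to -1.26), which is a 5.98-fold lower mean signal. It had the 34th smallest limma p of 27350 genes, 0.000936, with an adjusted p of 0.73. An exact two-sided permutation test of this gene alone gave p = 0.0022, the smallest that 924 arrangements of the tumours allow. That p does not account for the choice of members with earlier results of these data known.

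Has2 was also lower in the FAKi tumours, but unevenly. Has2 is the synthase that the embryo cannot do without and a main source of long hyaluronan chains. Vehicle tumours lay close together, at -1.91 for the lowest, -1.06 for the median and -0.76 for the highest. The FAKi tumours ran from -8.35 through a median of -3.46 to -0.82. FAKi 1, at -0.82, was inside the vehicle range, FAKi 3 was just below it at -2.15, and FAKi 6, 2, 5 and 4 followed at -3.24, -3.68, -5.69 and -8.35. The means were -1.24 ± 0.48 (SD, n = 6) and -3.99 ± 2.69 (SD, n = 6), so the spread among FAKi tumours was the wider. In log2 units FAKi minus vehicle was -2.75 (limma SE 0.97, 95% interval -4.84 to -0.66), a 6.72-fold lower mean signal. The limma p was 0.0137 and the adjusted p 0.9926. The exact two-sided permutation p for Has2 alone was 0.0173, and 5 of 6 FAKi tumours were below the vehicle mean. Only 104 of 27350 genes (0.38%) had a mean lower by 2 log2 or more in FAKi tumours, Has2 and Has3 among them.

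**Figure D1:**
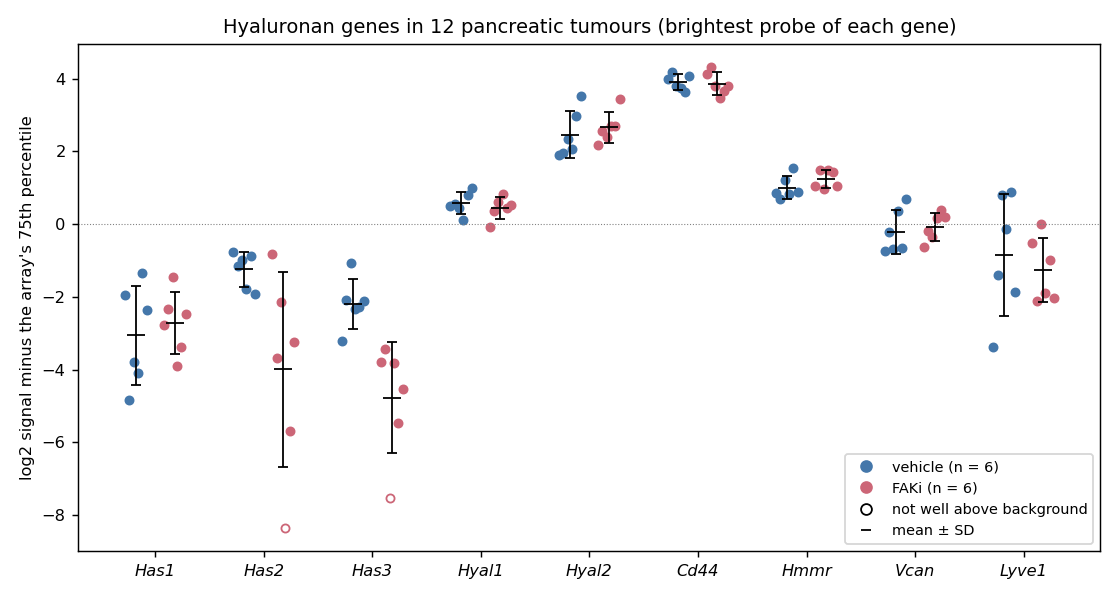
Level of the brightest probe of each measured hyaluronan gene (log2 signal minus the array's 75th percentile) in 6 vehicle and 6 FAKi tumours, with mean ± SD; open circles were not well above background. Has3 separates the groups by 0.21 log2, Has2 in FAKi tumours spreads from -8.35 to -0.82, and the other 7 genes overlap between groups; levels are not comparable between genes.

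The lowest value of each synthase was at the edge of detection. The Has2 probe was not well above background in FAKi 4, nor the Has3 probe in FAKi 3, and both were well above it on the other 11 arrays. With those values raised to the lowest signal that was well above background on the same array, -6.16 for Has2 and -6.14 for Has3, the log2 differences were -2.38 and -2.35, or 5.21-fold and 5.09-fold. This alternative was chosen after seeing the data. With normexp background correction, which compresses dim signals, the differences were -1.61 for Has2 and -1.45 for Has3. Without FAKi 4 the Has2 difference was -1.88.

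The slide on which a tumour was hybridised was checked as a batch. With slide as a block in limma the Has2 difference was -2.03 (unadjusted p = 0.233) and the Has3 difference -2.75 (unadjusted p = 0.0252). Only slides 1 and 4 held both groups, each with 2 vehicle tumours and 1 FAKi tumour. Within slide 1 the difference, FAKi minus vehicle, was -4.76 log2 for Has2 and -3.80 for Has3. Within slide 4 it was 0.71 for Has2 and -1.70 for Has3. Has2 was therefore lower in the FAKi tumour on slide 1 only, and Has3 on both slides. For Has3 that direction was fixed beforehand, since every FAKi tumour was below every vehicle tumour. The block fit takes its group difference from slides 1 and 4 alone, so it is not separate evidence.

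The lowest Has2 and the lowest Has3 were found in different FAKi tumours. FAKi 4 had the lowest Has2 of all 12 tumours with Has3 at -3.82, and FAKi 3 had the lowest Has3 with Has2 at -2.15. FAKi 5 was low for both, at -5.69 and -5.48. Across the 12 tumours Pearson's r between Has2 and Has3 was 0.37 (permutation p = 0.227) and Spearman's rho 0.54 (permutation p = 0.0745). Adjusted over the 36 pairs of members these were 0.774 and 0.533. The r was 0.39 without FAKi 4 and 5, -0.13 among vehicle tumours and -0.21 among FAKi tumours.

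**Figure D2:**
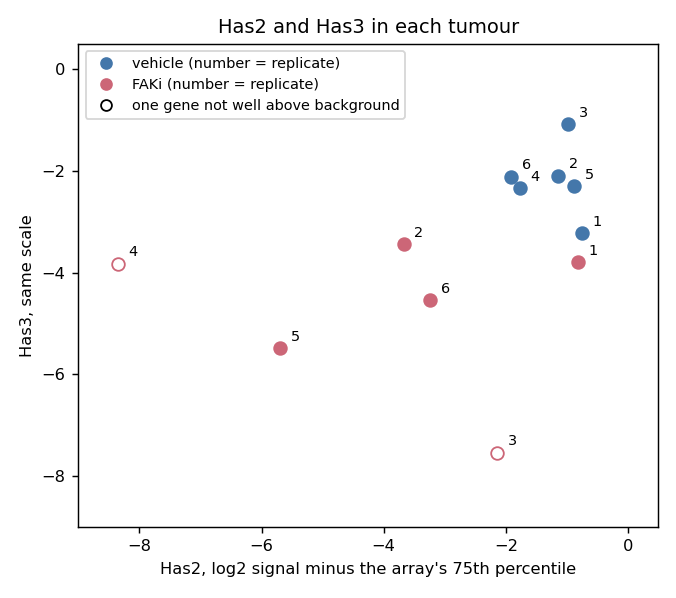
Has2 (x axis) against Has3 (y axis), both as log2 signal minus the array's 75th percentile, 1 numbered point per tumour; open circles mark tumours in which 1 of the genes was not well above background. Vehicle tumours group at the upper right, FAKi 1 lies beside them, FAKi 4 is lowest for Has2 at -8.35 and FAKi 3 lowest for Has3 at -7.54.

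Has1, the remaining synthase, showed no shift of that kind. Its measured probe (chr17:17980413-17980472, minus strand) was well above background on all 12 arrays. Vehicle tumours ran from -4.82 through a median of -3.07 to -1.35 and FAKi tumours from -3.91 through -2.61 to -1.45, so the FAKi values lay inside the vehicle range. On the log2 scale the difference was 0.34 (limma SE 0.59, 95% interval -0.92 to 1.61, adjusted p = 0.9994). The second Has1 probe was well above background on 0 of 12 arrays.

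Cell type markers that could go with the synthases were set beside them. The mean level of the 8 epithelial markers ran from 2.83 to 4.41 in vehicle and from 3.29 to 4.12 in FAKi tumours, with 4 markers higher and 4 lower in FAKi. The mean of the 11 fibroblast markers ran from 2.32 to 4.07 in vehicle and 2.79 to 3.69 in FAKi tumours, with 6 higher and 5 lower. Across tumours, r was 0.06 between Has3 and the epithelial mean (permutation p = 0.857, rho 0.18) and 0.15 between Has2 and the fibroblast mean (permutation p = 0.63, rho -0.01). Of the 4 measured mesothelial markers 2 were well above background on all 12 arrays. With the mean of the 4, Has2 had an r of -0.33 (permutation p = 0.305, rho -0.28), and of 0.05 without FAKi 4 and 5. Over all 12 tumours these are 3 of 8 relations of a member with a list, and the adjusted p of their r were 0.893, 0.84 and 0.813.

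No single gene of the other tissue marker lists below passed the adjusted test, and the list means were not tested. All 6 adipocyte markers had a lower mean in FAKi tumours (median log2 difference -0.73), with list means of -2.51 to 2.47 in vehicle and -2.45 to 0.94 in FAKi tumours. Among them Adipoq, which encodes adiponectin, differed by -2.98 (limma SE 1.90, adjusted p = 0.9994) and was well above background in 6 vehicle and 3 FAKi tumours. Of 8 endothelial markers 7 had a lower mean in FAKi tumours (median -0.31), with list means of -1.03 to 0.63 in vehicle and -1.36 to -0.08 in FAKi tumours. Of these 8, 2 were under an unadjusted limma p of 0.05 and 0 passed the adjusted test: Vwf, the von Willebrand factor, differed by -1.07 (limma SE 0.35, adjusted p = 0.9378), and Cdh5, the cadherin of vessel walls, by -1.05 (limma SE 0.37, adjusted p = 0.9926). All 6 measured acinar markers had a higher mean in FAKi tumours (median 0.44). Their list means were -2.65 to -1.74 in vehicle and -1.72 to -1.13 in FAKi tumours, which did not overlap. Of the acinar markers 1 was under an unadjusted limma p of 0.05, the trypsinogen Prss2, which differed by 1.23 (limma SE 0.39, adjusted p = 0.9199). Of the adipocyte markers 0 were. Their part in the Has2 and Has3 differences was not tested.

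The enzymes that make the activated sugars used by the synthases differed by no more than 0.34 log2 in either direction. All 8 genes of this list were measured, 0 passed the adjusted test, 0 were under an unadjusted limma p of 0.05, and 6 had a lower mean in FAKi tumours. Their median log2 difference was -0.18, against 0.08 over all genes. Ugdh, which makes UDP-glucuronic acid, differed by -0.27 (limma SE 0.20), and its levels were 3.13 to 3.65 in vehicle and 2.66 to 3.42 in FAKi tumours. Ugp2, which makes UDP-glucose ahead of Ugdh, differed by -0.31 (limma SE 0.22). Gnpnat1, of the branch that makes UDP-N-acetylglucosamine, differed by 0.34 (limma SE 0.18). All 3 had an adjusted p of 0.9994.

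The hyaluronidases overlapped between the groups. Hyal2, which sits on the cell surface and starts the cutting of long chains, had vehicle values of 1.90, 2.21 and 3.52 (lowest, median and highest) and FAKi values of 2.19, 2.63 and 3.44 at its brighter probe (chr9:107474949-107475008). The log2 difference was 0.21 (limma SE 0.31, 95% interval -0.47 to 0.89, adjusted p = 0.9994). Hyal1, the lysosomal enzyme that goes on to cut the fragments, had vehicle values of 0.12, 0.53 and 1.01 and FAKi values of -0.08, 0.49 and 0.82 (chr9:107483891-107483950), and differed by -0.13 (limma SE 0.22, 95% interval -0.60 to 0.35, adjusted p = 0.9994). The 2 genes are neighbours on chromosome 9 in the RefSeq annotation of GRCm38.p6, where Hyal1 overlaps Hyal3, so that a probe in the shared stretch could read either gene.

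The 2 probes of Hyal2 did not give the same picture. The dimmer probe, designed on the transcript record AK087358 and placed 724 bases upstream of the brighter one, had vehicle values of -5.95, -5.34 and -4.52 and FAKi values of -5.00, -4.55 and -4.06. All 6 FAKi tumours were above the vehicle mean, though the groups overlapped. In log2 units FAKi minus vehicle was 0.72 (limma SE 0.28, unadjusted p = 0.0217, adjusted p = 0.9664 over 40456 probes, of which 1957 or 4.84% were under an unadjusted p of 0.05). It was not well above background in vehicle 5. The second Hyal1 probe, designed on a RefSeq record, had means of -1.55 in vehicle and -1.87 in FAKi tumours and differed by -0.31 (limma SE 0.29). The brighter Hyal1 probe was designed on an Ensembl record. Whether the sequence of that probe, or of the dimmer Hyal2 probe, also occurs elsewhere in the genome was not analysed here.

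Of 10 other genes for breakdown of hyaluronan 6 were measured, and 0 passed the adjusted test or were under an unadjusted limma p of 0.05. Hyal4, Hyal5, Hyal6 and Spam1 were not measured. The median log2 difference of the list was -0.23, with 5 of 6 means lower in FAKi tumours. Gusb, the lysosomal glucuronidase, differed by -0.28 (limma SE 0.22). Cemip and Cemip2, both tied to the cutting of long chains, differed by 0.05 (limma SE 0.44) and -0.26 (limma SE 0.32).

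**Figure D3:**
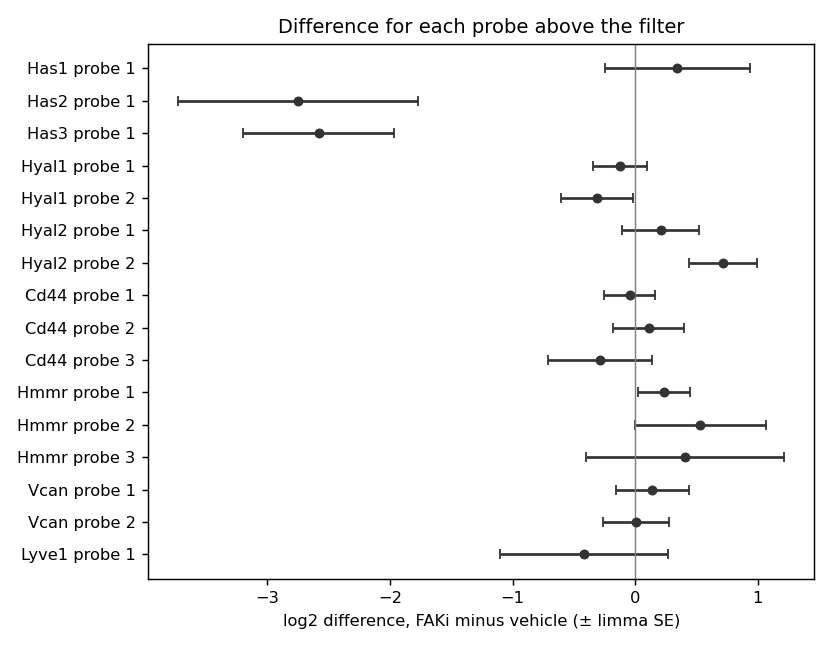
Log2 difference between FAKi and vehicle tumours (x axis, FAKi minus vehicle) for each of the 16 measured probes of 9 hyaluronan genes, with bars of ± 1 limma SE. The Has2 and Has3 probes stand at -2.75 and -2.58, and the other 14 lie between -0.42 and 0.72.

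Cd44, the main surface receptor for hyaluronan, held nearly the same level in both groups. At its brightest probe the vehicle tumours had values of 3.64, 3.90 and 4.18 (lowest, median and highest) and the FAKi tumours 3.47, 3.80 and 4.32. On the log2 scale the difference was -0.05 (limma SE 0.21, 95% interval -0.49 to 0.40, adjusted p = 0.9994), an interval that does not reach the size of the Has3 difference. Its other 2 probes differed by 0.11 and -0.29. Of 6 genes for CD44 splicing and its partners under the membrane, 0 passed the adjusted test. Esrp2, a splicing regulator of epithelial cells, differed by 0.42 (limma SE 0.43), and Msn, the linker moesin, by -0.22 (limma SE 0.25).

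Hmmr, which binds hyaluronan and is best known as a spindle protein of dividing cells, overlapped between the groups as well. Its brightest probe had vehicle values of 0.70, 0.87 and 1.54 and FAKi values of 0.96, 1.24 and 1.48. The log2 difference was 0.24 (limma SE 0.21, 95% interval -0.22 to 0.69, adjusted p = 0.9994). The other 2 probes differed by 0.53 and 0.41. All 3 probes thus had a higher mean in FAKi tumours, and none passed the test.

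At its brightest probe Hmmr followed the mitotic genes from tumour to tumour. Over the 12 tumours its level had a Pearson's r of 0.86 with the mean of 15 mitotic genes (permutation p = 0.00043) and a Spearman's rho of 0.90 (permutation p = 9e-05). Adjusted over 8 relations of a member with a list these were 0.00172 and 0.00072. The r was 0.76 without vehicle 5 and FAKi 2, the tumours farthest from the median, 0.84 with each slide's mean removed, 0.99 among vehicle and 0.57 among FAKi tumours. Of the 15 mitotic genes 13 had a higher mean in FAKi tumours, with a median log2 difference of 0.36 against 0.08 over all genes, and 0 passed the adjusted test. Aurkb, a kinase of chromosome segregation, differed by 0.67 (limma SE 0.29), whereas the cyclin Ccnb2 differed by -1.08 (limma SE 0.47), both with an adjusted p of 0.9994. The mean of the 15 genes ran from 0.17 to 1.43 in vehicle and from 0.51 to 1.28 in FAKi tumours. The other Hmmr probes were not tested against this list. At probe 2 vehicle 5, with the highest mitotic mean (1.43), was at -5.06, below the vehicle mean of -3.82. FAKi 2, with the highest mitotic mean of the FAKi tumours (1.28), was at -2.61, above the FAKi mean of -3.29.

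Cd44 and Hmmr are each read by 3 probes at different places along the gene, and these probes did not vary alike from tumour to tumour. They are shown because the upstream probes differed between tumours in a way that cuts across the groups. All lie on the minus strand of mm9 and are listed from the upstream to the downstream end. Probe 3 of Hmmr is at chr11:40535400-40536940, a stretch of 1541 bases that its 60 bases span with a gap, probe 2 at chr11:40519497-40519556 and probe 1 at chr11:40515324-40515383. For Cd44, probe 3 is at chr2:102677971-102678030, probe 2 at chr2:102654278-102654337 and probe 1 at chr2:102652758-102652817. For probe 1 of each gene the first 30 of 60 bases are printed, and the others are whole. Which exons the probes cover, and whether every transcript form carries them, was not analysed here.
Hmmr probe 3: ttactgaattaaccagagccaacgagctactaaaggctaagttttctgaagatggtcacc
Hmmr probe 2: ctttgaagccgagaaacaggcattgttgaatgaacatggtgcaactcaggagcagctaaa
Hmmr probe 1: actgttgtctttgctgtaactaggcttcac
Cd44 probe 3: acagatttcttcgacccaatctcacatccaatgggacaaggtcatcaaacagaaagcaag
Cd44 probe 2: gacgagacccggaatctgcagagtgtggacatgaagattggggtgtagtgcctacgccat
Cd44 probe 1: atattaactctataaaataaggctgtccct

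The upstream probes were lowest in the same few tumours. Hmmr probe 3 had levels of -6.52 in vehicle 5, -7.10 in vehicle 6 and -6.52 in FAKi 6, and in these 3 tumours it was not well above background. In the other 9 tumours it lay between -5.38 and -2.85. Probe 1, at the downstream end, had levels of 1.54, 0.88 and 1.04 in the same 3 tumours. Cd44 probe 3 was lowest in vehicle 5 (-1.80), FAKi 6 (-1.76) and vehicle 6 (-0.86), while the other 9 lay between -0.44 and 0.49, and Cd44 probe 1 had levels of 3.64, 3.81 and 4.07 in those 3.

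The level of the upstream probe minus that of the downstream probe, which also holds the fixed difference in brightness between the probes, showed the same order. For Hmmr, over 20.1 kb of genome, it ran from -8.07 to -4.02 in vehicle and from -7.57 to -3.91 in FAKi tumours. For Cd44, over 25.2 kb, it ran from -5.44 to -3.38 in vehicle and from -5.57 to -3.61 in FAKi tumours. The groups overlapped, and vehicle 5, vehicle 6 and FAKi 6 were the 3 lowest for Cd44. For Hmmr they were too, but on values of probe 3 that were not well above background. With those raised to the lowest signal above background on the same array, a choice made after seeing the data, the Hmmr differences were -7.59 in vehicle 5, -6.90 in FAKi 6 and -5.83 in vehicle 6, and FAKi 5 (-6.81) was lower than vehicle 6.

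The other members with 2 measured probes did not all show that order. For Hyal1, over 1998 bases, FAKi 6 (-3.17) and vehicle 6 (-3.04) were lowest, and for Hyal2, over 724 bases, vehicle 5 (-8.92, from a signal not well above background) and vehicle 6 (-8.24). For Vcan, the widest pair at 56.7 kb, vehicle 5 was lowest (-0.34), while vehicle 6 (1.43) and FAKi 6 (1.45) were among the highest.

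The same quantity was taken over all 6707 genes with measured probes at least 1000 bases apart, as each array's median difference relative to the gene's mean. It was -0.85 in vehicle 5, -0.46 in FAKi 6 and -0.10 in vehicle 6, and between 0.04 and 0.43 in the other 9 tumours. By group it was -0.09 ± 0.38 (SD, n = 6) in vehicle and 0.13 ± 0.31 (SD, n = 6) in FAKi tumours (exact two-sided permutation p = 0.329). Across the 12 tumours it had an r of 0.71 with the Hmmr difference (permutation p = 0.00809, adjusted over 3 relations 0.0121) and of 0.79 with the Cd44 difference (permutation p = 0.00314, adjusted 0.00942). Spearman's rho was 0.42 (permutation p = 0.179) and 0.45 (permutation p = 0.148), adjusted 0.269 for both. Without vehicle 5 and FAKi 6 r was 0.36 for both genes, so the relation rests on those 2 tumours. With the raised values r for Hmmr was 0.70 (permutation p = 0.0108), and 0.04 without the same 2 tumours. For Vcan r was 0.25 (permutation p = 0.454). RNA quality was not given in the sources used here, and its part in this pattern was not tested. The part of splice forms and of the tissue mix was not tested either. The mean of the epithelial markers was lowest of all tumours in vehicle 5 (2.83). Among FAKi tumours it was lowest in FAKi 6 (3.29), and in vehicle 6 it was 3.60. Esrp2 was lowest in vehicle 5 (-1.26), but in FAKi 6 (1.11) it was within the range of the other FAKi tumours.

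**Figure D4:**
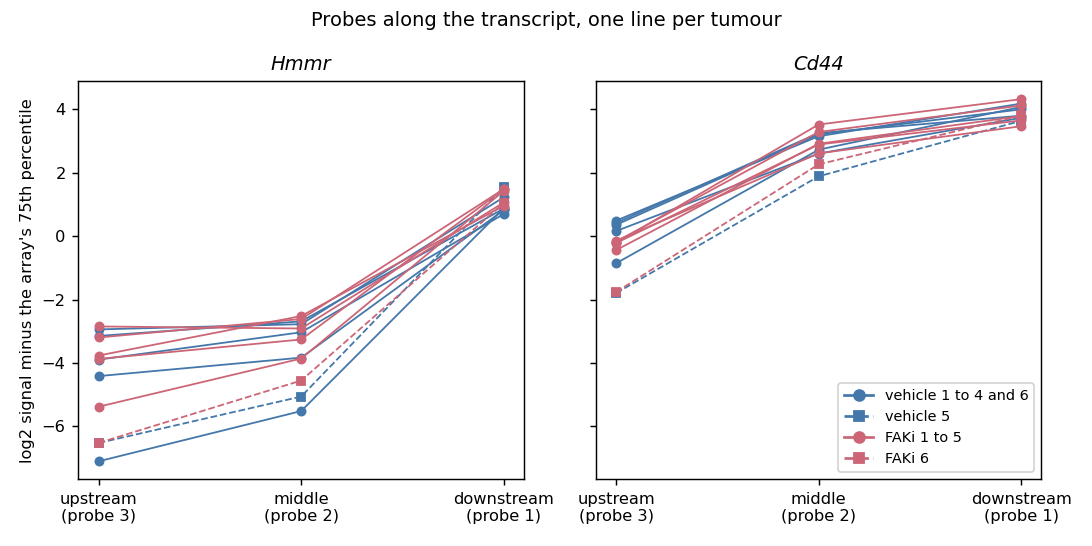
Level of 3 probes of Hmmr (left) and 3 of Cd44 (right), from the upstream to the downstream end of the transcript, as log2 signal minus the array's 75th percentile, 1 line per tumour; vehicle 5 and FAKi 6 are dashed. At the upstream end vehicle 5 and FAKi 6 are low in both genes (Cd44 -1.80 and -1.76), and at the downstream end all 12 tumours lie within 0.85 log2 of each other in either gene. Whether every transcript form carries each probe was not analysed.

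Without vehicle 5, vehicle 6 and FAKi 6, a choice made after seeing the data, the log2 difference was -2.98 for Has2 and -2.63 for Has3 (4 vehicle and 5 FAKi tumours). It was 0.38 for Hmmr and -0.06 for Cd44. The synthase differences were thus as large without these 3 tumours as with them.

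At the brightest probe of each receptor gene, Lyve1 varied most, over a range of 4.27 log2 against 0.85 for Cd44 and for Hmmr, and it did so within each group. LYVE1 is a hyaluronan receptor of lymphatic vessels that some tissue macrophages also carry. Its probe (chr7:117994171-117994230, minus strand) was well above background on all 12 arrays. Vehicle tumours ran from -3.38 through a median of -0.76 to 0.90 and FAKi tumours from -2.10 through -1.45 to 0.01, so the FAKi values lay inside the vehicle range. In log2 units FAKi minus vehicle was -0.42 (limma SE 0.68, 95% interval -1.89 to 1.05, adjusted p = 0.9994).

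The level of Lyve1 followed the markers of tissue-resident macrophages. With the mean of 9 such markers r was 0.90 (permutation p = 0.00012) and rho 0.87 (permutation p = 0.00053), which were 0.00096 and 0.00212 adjusted over 8 relations. The r was 0.81 without vehicle 1 and 5, 0.85 with each slide's mean removed, 0.96 among vehicle and 0.68 among FAKi tumours. With the mean of 6 lymphatic endothelial markers r was 0.25 (permutation p = 0.433), rho 0.11 (permutation p = 0.732), 0.36 without the same 2 tumours and -0.04 with each slide's mean removed. The difference between these r was not tested. Within the lymphatic list Ccl21a ran from -5.07 to 4.35, which weighs on its mean. Other lists were not tested against Lyve1, so the relation is not shown to be particular to macrophage markers. The endothelial mean was -1.03 in vehicle 1 and 0.63 in vehicle 5, the lowest and highest vehicle tumours for both it and Lyve1. The adipocyte mean was also lowest in vehicle 1 (-2.51), but its highest was in vehicle 4 (2.47). Of the 8 lymphatic markers, Flt4 and Mmrn1 were not measured and Prox1, the defining transcription factor, was well above background in 4 vehicle and 3 FAKi tumours.

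Vehicle 1 had the lowest Lyve1 and the lowest macrophage mean, and vehicle 5 the highest of both. The macrophage mean ran from -0.99 to 1.99 in vehicle and from -0.51 to 1.09 in FAKi tumours. Of the 9 markers 7 had a lower mean in FAKi tumours, with a median log2 difference of -0.47, and 0 passed the adjusted test. F13a1, the coagulation factor chain of resident macrophages, differed by -0.69 (limma SE 0.47), and Timd4, a receptor for dying cells, by 0.64 (limma SE 0.36).

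**Figure D5:**
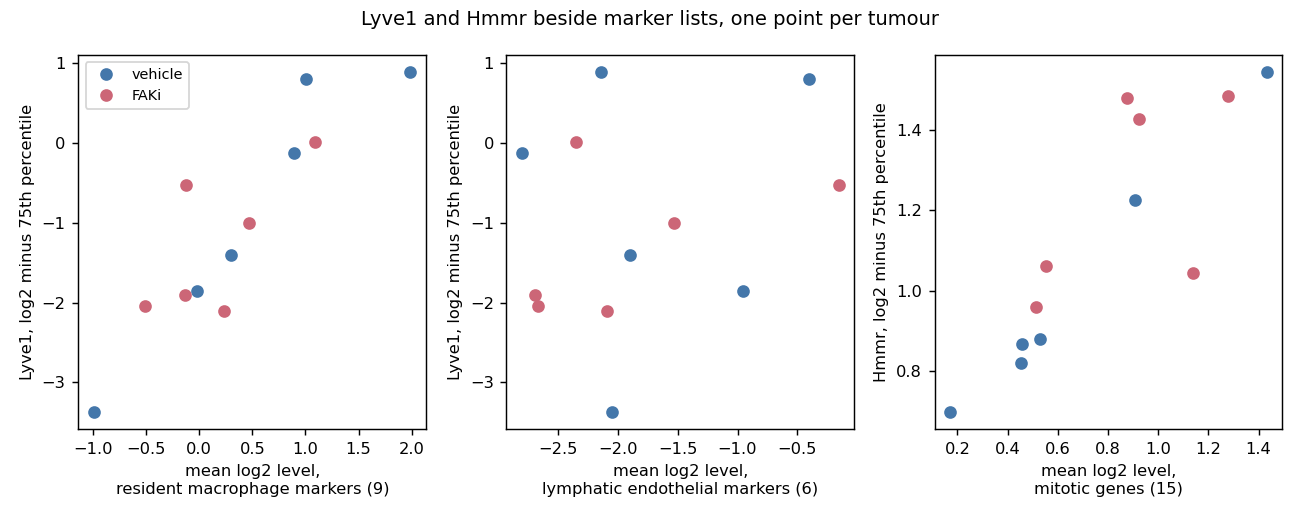
Lyve1 against the mean level of 9 resident macrophage markers (left) and of 6 lymphatic endothelial markers (middle), and Hmmr against the mean of 15 mitotic genes (right), all as log2 signal minus the array's 75th percentile, 1 point per tumour. Points rise from left to right in the left (r 0.90) and right (r 0.86) panels and scatter in the middle one (r 0.25). Hmmr is read at its brightest probe.

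Among 8 measured genes for other hyaluronan receptors and binding proteins, 0 passed the adjusted test or were under an unadjusted limma p of 0.05, and Susd5 was not measured. The median log2 difference was -0.27, with 5 means lower in FAKi tumours. Habp2, a serine protease named for hyaluronan binding, differed by -1.68 (limma SE 0.78, unadjusted p = 0.0504, adjusted p = 0.9994). Its values ran from -3.30 to 0.72 in vehicle and from -4.34 to -0.32 in FAKi tumours, which overlapped. Tlr4, an innate immune receptor, differed by -0.49 (limma SE 0.34). The scavenger receptors Stab1 and Stab2 differed by -0.31 (limma SE 0.43) and 0.30 (limma SE 0.34).

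Vcan, the large proteoglycan that binds hyaluronan through its head, did not differ between the groups beyond its spread. At its brightest probe (chr13:89851810-89851869, minus strand) vehicle tumours ran from -0.73 through a median of -0.44 to 0.69, and FAKi tumours from -0.63 through -0.02 to 0.40. On the log2 scale the difference was 0.14 (limma SE 0.30, 95% interval -0.50 to 0.78, adjusted p = 0.9994). Its second probe, 56.7 kb downstream, differed by 0.0067. Its probe 3 was well above background in 2 vehicle and 1 FAKi tumour and was not compared. At its brightest probe Vcan had an r of 0.04 with the fibroblast mean (permutation p = 0.893, rho 0.17) and 0.18 with the mesothelial mean (permutation p = 0.572, rho 0.21). The second probe varied otherwise between tumours and was not tested against these lists. Vehicle 5, with the highest fibroblast mean (4.07), was highest of all 12 tumours at the second probe (-0.32) but at -0.66 at the brightest. Vehicle 1, with the lowest fibroblast mean (2.32), was at -1.53 at the second probe and -0.73 at the brightest.

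Hapln1, the link protein that locks proteoglycans onto hyaluronan, had 2 probes, both well above background on 0 of 12 arrays. Their values, between -9.27 and -7.03, give no order, and no fold was computed. In the RefSeq annotation of GRCm38.p6 Hapln1 is the direct neighbour of Vcan on chromosome 13, and on these arrays the pair thus had 1 gene measured in all 12 tumours and 1 in 0.

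Of 6 other lecticans and link proteins 5 were measured, 0 passed, and the median log2 difference was 0.16. Acan, the cartilage proteoglycan, differed by -0.17 (limma SE 0.43). Ncan, the lectican of nervous tissue, differed by 0.33 (limma SE 0.24). Hapln2 differed by 0.61 (limma SE 0.56) but was well above background in only 1 vehicle and 5 FAKi tumours.

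Proteins that crosslink hyaluronan differed in both directions, with 4 of 8 means higher and 4 lower in FAKi tumours and a median log2 difference of 0.17. Of the 8, 1 gene was under an unadjusted limma p of 0.05 (4.79% of all genes were) and 0 passed the adjusted test. That gene was Itih5, of the family of inter-alpha-inhibitor heavy chains. Its levels ran from -4.81 to -0.85 in vehicle and from -8.35 to -2.39 in FAKi tumours, and the groups overlapped. The log2 difference was -2.29 (limma SE 0.91, unadjusted p = 0.0254, adjusted p = 0.9994). Itih5 was well above background in 5 vehicle and 5 FAKi tumours. Its lowest value, as for Has2, was in FAKi 4, where it was at background; raised to the lowest signal above background on that array, the difference was -1.93. Itih4 differed by 0.84 (limma SE 0.45), and Tnfaip6, the protein that moves heavy chains onto hyaluronan, by 0.35 (limma SE 0.46).

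Of 6 proteases that cut versican, Adamts1 was the 1 gene under an unadjusted limma p of 0.05, and 0 passed. Its levels ran from -0.23 to 1.79 in vehicle and from -1.06 to 0.57 in FAKi tumours. FAKi 1, at 0.57, was the highest FAKi tumour and FAKi 3, at -0.22, the next. In log2 units FAKi minus vehicle was -1.03 (limma SE 0.35, unadjusted p = 0.0114, adjusted p = 0.9641). Adamts15 differed by 0.46 (limma SE 0.37), and the median of the list was 0.22.

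Among the 9 measured members, each read by its brightest probe, 36 pairs were compared across the 12 tumours. After adjustment 0 passed for either coefficient. The 3 pairs of largest absolute r were Hyal1 with Hyal2, Has2 with Hmmr, and Hyal2 with Vcan. Hyal1 and Hyal2, the neighbours, had an r of 0.58 (permutation p = 0.049, adjusted 0.709) and a rho of 0.54 (permutation p = 0.0751). The r fell to 0.37 without the 2 tumours farthest from the median, and was 0.63 with each slide's mean removed. Has2 and Hmmr had an r of -0.54 (permutation p = 0.0634, adjusted 0.709), which was -0.22 without FAKi 4 and 5. Hyal2 and Vcan had an r of 0.53 (permutation p = 0.0788), which was 0.16 without the 2 farthest tumours. Next in size, and named here after its values were seen, was Has2 with Vcan, with an r of -0.52 (permutation p = 0.0788, adjusted 0.709) and a rho of -0.71 (permutation p = 0.0128, adjusted 0.461). That r was -0.52 without FAKi 4 and 5, -0.67 with each slide's mean removed, -0.99 among vehicle and -0.76 among FAKi tumours. It holds for Vcan probe 1 only, and Has2 was not tested against the second Vcan probe. Vehicle 6 and vehicle 4 had the lowest Has2 of the vehicle tumours (-1.91 and -1.77) and the highest Vcan probe 1 (0.69 and 0.35). At the second Vcan probe they were at -0.74 and -0.76, and vehicle 5 was the highest (-0.32).

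The genes most like each member over the 12 tumours were sought among 15180 named genes well above background on all arrays. Each member was read by its brightest probe, and Pearson's r was used as a description with no test. Nearest to Has3 were Tns4, a focal adhesion protein of the tensin family (r 0.87), and Tm7sf2, a sterol reductase (r 0.86). Tns4 was lower in FAKi tumours with no overlap, with a log2 difference of -2.24 (limma SE 0.45, adjusted p = 0.5459). Nearest to Has2 were Atpaf1, an assembly factor of the mitochondrial ATP synthase (r 0.93), and Tcf7, a transcription factor of T cells and Wnt signalling (r 0.93). Within the vehicle tumours alone the r of these pairs was lower, at 0.55 for Tns4, 0.28 for Tm7sf2, 0.59 for Atpaf1 and 0.69 for Tcf7. Within the FAKi tumours alone it was 0.67 for Tns4, 0.81 for Tm7sf2, and 0.96 for both Atpaf1 and Tcf7.

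For Hmmr the nearest genes were Kif2c (r 0.94) and Dsn1 (r 0.92), both of the kinetochore. For Lyve1 they were Sgce, a sarcoglycan (r 0.93), and Grrp1 (r 0.93), and for Has1 Rbpms2, an RNA-binding protein of smooth muscle (r 0.96), and the hedgehog pathway factor Gli3 (r 0.94). Hyal2 was nearest to Wdr12, a ribosome assembly factor (r 0.99), and Fkbpl (r 0.98), Hyal1 to the DNA repair enzyme Nthl1 (r 0.88) and Brd1 (r 0.87), Vcan to Prlhr (r 0.98) and Pstpip2 (r 0.97), and Cd44 to Spire1 and Nat8l (both r 0.84).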

How the data were processed

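Tumour RNA of 6 vehicle and 6 FAKi samples was measured on one-colour arrays. Scanner output of Agilent Feature Extraction 11.5.1.1 was deposited by the authors as intensity values, per the file headers, which give the red channel only, processed by background subtraction. The authors also deposited a log2 table of 38569 probes of the same arrays, which was used as an alternative; each of its columns matched its own array best (lowest r 0.9965, across probes and not independent replicates), and its normalisation was not given in the sources used here, although the submitters' processing notes name limma. Its column medians lay between 10.71 and 10.90, so it was on a log2 scale and not centred.

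From the intensities, log2 values minus each array's 75th percentile were computed, controls and outlier spots (71 to 156 an array) left out and spots of a probe averaged. Probes well above background on at least 6 of 12 arrays were kept, and a gene was read by its brightest probe. Probes were named by RefSeq accession (32994), current symbol (10224), synonym (520) or the array's own name (12867). Groups were compared by limma 3.58.1 in R 4.3.3 over all genes and all probes, without covariates, with Benjamini-Hochberg adjustment at 0.05, and single members by exact permutation. Correlations used permutation in scipy 1.17.1.

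The arrays lay on 5 slides: slide 1 with vehicle 3, vehicle 5 and FAKi 5, slide 2 with vehicle 1 and 4, slide 3 with FAKi 2, 3 and 4, slide 4 with vehicle 2, vehicle 6 and FAKi 1, and slide 5 with FAKi 6. Alternatives changed the scaling, background, filter, probe choice, slide and replicate blocks, weights and the arrays used. The fit was tested on simulated data. The members and lists were chosen with earlier results of these data known. From each list the 2 genes of smallest unadjusted p were named, except 1 gene that is not reported here, and of the likeness search the 2 of highest r; other genes named beside them (Ugdh, Cemip, Cemip2, Stab1, Stab2, Acan and Tnfaip6) were chosen for their role after their values were seen. The relation of Has3 with the epithelial markers was also added then. Sequences are those of the array's design.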

Additional observations from a re-analysis of the deposited data

Results flagged for a closer look

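For 4 to 10 samples, a tumour was marked when its gap to the nearest other tumour was a large share of its group's range. Of 32 groups of member probes looked at, 1 was marked, and chance marks about 1 in 20 groups. It was the upstream probe 3 of Cd44 in the FAKi group, where FAKi 6 was at -1.76 and the nearest other FAKi tumour at -0.44, a gap of 0.818 of the group's range, above Dixon's critical value. FAKi 6 was the only array on its slide. At the downstream probe 1 of Cd44 the same tumour was at 3.81, within the range of the other FAKi tumours.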

How the results depend on the processing

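Has3 was below 0 in all 27 alternatives that gave a value, from -3.80 to -1.45 log2, and Has2 in 26 of 27, from -4.76 to 0.71, the exception being the value within slide 4 (0.71). As Has3 did not overlap between the groups, its sign could not change within a slide or when arrays were left out. Several alternatives, such as leaving out the filter or adding the replicate block, returned the main differences of both genes unchanged. The 27 were therefore not separate checks. Within slides 1 and 4 and without 3 arrays there was no test. In the alternatives with a limma test neither gene passed, with adjusted p between 0.114 and 1.0 for Has3 and between 0.165 and 1.0 for Has2. Requiring a signal on all 12 arrays left both genes out. Leaving out each array in turn gave -2.85 to -2.03 for Has3 and -3.38 to -1.88 for Has2.

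The number of genes called was 0 but for 2 with array weights and 0 to 3 when each array was left out; the number of probes called was 1 in the authors' table and 0 to 4 when each array was left out. The 3 and the 4 came without FAKi 1. Genes under an unadjusted p of 0.05 numbered 1310, and 495 with slide as a block, 5027 with array weights, 3773 without vehicle 6, 872 without FAKi 2 and 763 without FAKi 4. Quantile normalisation moved the median gene from 0.08 to 0.04 and the share of genes with a lower mean from 39.5% to 44.9%, normexp to 47.8% and slide as a block to 53.4%.

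Small differences changed sign or size. Without single arrays Cd44 ran from -0.138 to 0.033, Has1 from -0.0078 to 0.688 and Lyve1 from -0.925 to -0.071. Has1 was 0.944 with array weights and 0.899 without vehicle 5, vehicle 6 and FAKi 6. Array weights turned Hyal1 to 0.030, as did leaving out vehicle 5, vehicle 6 and FAKi 6 (0.025), and slide as a block turned Hyal2 to -0.25. Within slide 1 the values were -0.81 for Has1 and 1.06 for Vcan, and within slide 4 they were -0.86 for Hyal1, -0.55 for Hyal2, 1.098 for Lyve1 and -0.87 for Vcan. The cause was not tested.

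The replicate numbers are shared between groups, and whether they pair the tumours is unclear: 4 of 6 same-numbered pairs had an r of deviations over 0.1 (range -0.12 to 0.49), and 2 of 6 vehicle tumours matched their own number best. As not every pair was over 0.1, the numbers were treated as names. With the replicate block 0 genes were called and 1665 were under an unadjusted p of 0.05. Dim signals limit Has2 in FAKi 4, Has3 in FAKi 3, Itih5 in FAKi 4, Hmmr probe 3 in vehicle 5, vehicle 6 and FAKi 6, and both Hapln1 probes.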
